A study of Eumeta variegata with 6 samples.

Results

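Sequences named for non-LTR retrotransposons were followed through the head transcriptome of Eumeta variegata, a bagworm moth, in 3 libraries from males and 3 from females. A sequence was taken in when its name held mobile element jockey, transposon BS, transposon X-element, LINE-1 or retrotransposable element. The name was that of the best match in the NR protein database, and that of Swiss-Prot where the NR entry was missing, hypothetical or uncharacterized. This held for 357 of the 41283 assembled sequences, and for 2.64% of the 13511 that carried an informative name. The labels give sex and tissue, but no age, no stage, and do not state whether a library held one animal or a pool, or whether libraries of one sex shared animals. The p-values therefore measure only the spread between these libraries, which may be technical. Sequences are called below by their assembler names without the shared prefix TRINITY_, and the last digit of each name, 1 or 2, is called its ending.

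Non-LTR retrotransposons are mobile DNA elements that lack long terminal repeats. They move by being transcribed into RNA, which a reverse transcriptase encoded by the element copies back into the genome at a cut made by an endonuclease, and many copies are truncated and cannot move on their own. The jockey, BS and X elements were described in Drosophila, LINE-1 is the abundant element of mammals, and R1 and R2 insert into the ribosomal RNA genes of arthropods. RNA that carries element sequence can come from an element's own promoter or from a host gene whose transcript holds a copy. In insects the small RNA pathways, with PIWI and Argonaute proteins, are known to silence such elements.

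The BS name was the most common, with 167 sequences, followed by jockey with 60, type-1 elements with 56, X-element with 47 and LINE-1 with 20. Type-1 names stood for the R1 element in most cases and for R2 in 5. The other 7 comprised 6 sequences named for type-2 element R2DM and 1 named for Tf2, an element of fission yeast that has long terminal repeats and so is no non-LTR element by its name. NR gave the name of 338 sequences, and for 330 of all 357 the best match was a protein predicted in Eumeta japonica, of the same genus. These 338 matched 209 different NR proteins. Of them, 186 shared their NR protein with at least 1 other, and up to 16 matched the same protein. Whether any of these are near-identical copies that share reads was not tested, so the values of single copies are uncertain.

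The annotation beside the names gave an element for some of the set. Swiss-Prot named a mobile element for 114 sequences, another protein for 12 and nothing for 231. A reverse transcriptase domain from the Pfam database was listed for 60 sequences, and no domain at all for 278. In 19 sequences the Swiss-Prot name or a domain belonged to a protein of another kind, and 6 of these also carried an element domain. Among them, DN22289_c0_g1_i1_1, named for jockey, was Protein takeout in Swiss-Prot, a secreted ligand-binding protein, and its only domain was that of a hemolymph juvenile hormone binding protein. DN2732_c0_g1_i6_1, named for a nucleic-acid-binding protein of X-element, was the Glutamate-gated chloride channel in Swiss-Prot, a receptor of neurons and muscle, and held the channel's domains beside part of a transposase domain. DN9607_c0_g1_i7_1, named for BS, was mitochondrial 39S ribosomal protein L1. These 19 had a median level of 5.83 FPKM, against 1.38 FPKM for the 282 with neither a reverse transcriptase domain nor another protein's name or domain. FPKM, fragments per kilobase of sequence and per fixed number of mapped fragments, is given as the authors deposited it. So a name did not always stand for a free-standing element, and 7 of the 13 sequences that averaged at least 10 FPKM were among the 19.

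Most of the sequences were low. Their median level over the 6 libraries was 1.40 FPKM, against 2.14 FPKM for the whole table, and 13 of 357 (3.64%) averaged at least 10 FPKM, against 14.8% of all sequences. At least 1 FPKM was reached by 229, 255 and 239 of them in male libraries 1, 2 and 3, and by 220, 216 and 223 in female libraries 1, 2 and 3. In all 6 libraries 134 sequences reached 1 FPKM. None was listed at 0 throughout. Their summed level was 1794, 1824 and 1794 FPKM in males and 1741, 1812 and 1603 FPKM in females. That was 0.328% to 0.380% of each library's total, and the sums of the sexes overlapped. In bulk heads, fewer cells that use a sequence and less of its RNA per cell cannot be told apart.

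A large share of that sum came from a pair of R1 sequences. DN541_c0_g1_i3_2 had 641, 623 and 628 FPKM in males and 687, 733 and 584 FPKM in females, and it ranked 76 of 41283 in the whole table. DN481_c0_g1_i14_1 had 225, 235 and 206 FPKM in males and 150, 250 and 195 FPKM in females. Both matched the same NR protein, carried a reverse transcriptase and an endonuclease domain, and were named R1 by Swiss-Prot too. Together they held 46.5% to 48.3% of the summed level in male libraries and 48.1% to 54.3% in female libraries. Without this pair the sums were 928, 966 and 960 FPKM in males and 904, 829 and 823 FPKM in females. These did not overlap as deposited, and did overlap with libraries scaled by the median of ratios. No test was made on them. The pair was then compared sequence by sequence. Neither differed between the sexes beyond the spread of the libraries (log2 fold changes of -0.08 and 0.19, limma adjusted p = 0.72 and 0.59, male minus female on the log2(FPKM + 1) scale).

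A pair of BS sequences came next. DN2300_c0_g1_i1_2 had 121, 113 and 141 FPKM in males and 117, 73.5 and 82.8 FPKM in females. DN5399_c0_g1_i16_1 had 38.0, 39.2 and 52.9 FPKM in males and 32.9, 24.4 and 25.2 FPKM in females. In the first the sexes overlapped and in the second they did not, and neither passed the test (log2 fold changes of 0.47 and 0.64, limma adjusted p = 0.18 and 0.073). The first passed it without female 1 (limma adjusted p = 0.036). They too matched a single NR protein, and neither had a listed domain. The fifth, DN22289_c0_g1_i1_1 with the takeout name, had 23.6, 21.8 and 23.6 FPKM in males and 34.3, 33.96 and 26.4 FPKM in females. The sexes did not overlap. It missed the threshold (log2 fold change -0.43, limma adjusted p = 0.067) and passed it without female 3 (limma adjusted p = 0.018) and with quantile normalization (limma adjusted p = 0.049).

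Ordered by summed level, type-1 elements stood first, then BS, jockey, X-element, LINE-1 and the rest, in every library. The order by the level of a typical sequence was different: the median was 1.77 FPKM for BS, 1.46 for LINE-1, 1.37 for the rest, 1.25 for X-element, 1.08 for jockey and 0.977 for type-1. Without its 2 most abundant sequences the type-1 sum was 72.7 to 80.3 FPKM in males and 71.6 to 78.0 FPKM in females. The most abundant LINE-1 sequence, DN5972_c0_g1_i3_2, had 13.4, 13.8 and 13.2 FPKM in males and 14.95, 14.5 and 13.4 FPKM in females, and Swiss-Prot named it a tRNA methyltransferase. The highest LINE-1 sequence with ending 1, DN1342_c1_g1_i1_1, had 1.55, 1.79 and 1.66 FPKM in males and 3.43, 2.08 and 1.86 FPKM in females. Neither differed between the sexes by the test.

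The sums of 3 types did not overlap between the sexes as deposited, and their differences were small. Jockey sequences summed to 125, 137 and 128 FPKM in males and 118, 115 and 117 FPKM in females. X-element sequences summed to 101, 104 and 102 FPKM in males and 94.8, 86.3 and 92.7 FPKM in females. BS sequences summed to 558, 576 and 591 FPKM in males and 551, 482 and 470 FPKM in females. With libraries scaled by the median of ratios the BS sums overlapped. The lowest male sum then stood above the highest female sum by 0.0744 FPKM for jockey and by 0.253 FPKM for X-element. The sums of type-1, LINE-1 and the rest overlapped under both scalings. Such a separation was not particular to these types. Sums of sequences named for DNA transposons were also higher in every male, by at least 154 FPKM as deposited and 84.5 FPKM scaled. Sums of LTR elements overlapped as deposited and were lower in every male when scaled. The same was so for sums of the whole table, which when scaled were 448036 to 479077 FPKM in males and 491946 to 499913 FPKM in females. The BS sums include the abundant pair DN2300_c0_g1_i1_2 and DN5399_c0_g1_i16_1 described above, neither of which passed the test. By the values given above, the BS sums as deposited overlap between the sexes once this pair is taken off. No test was made on these sums.

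**Figure D1:**
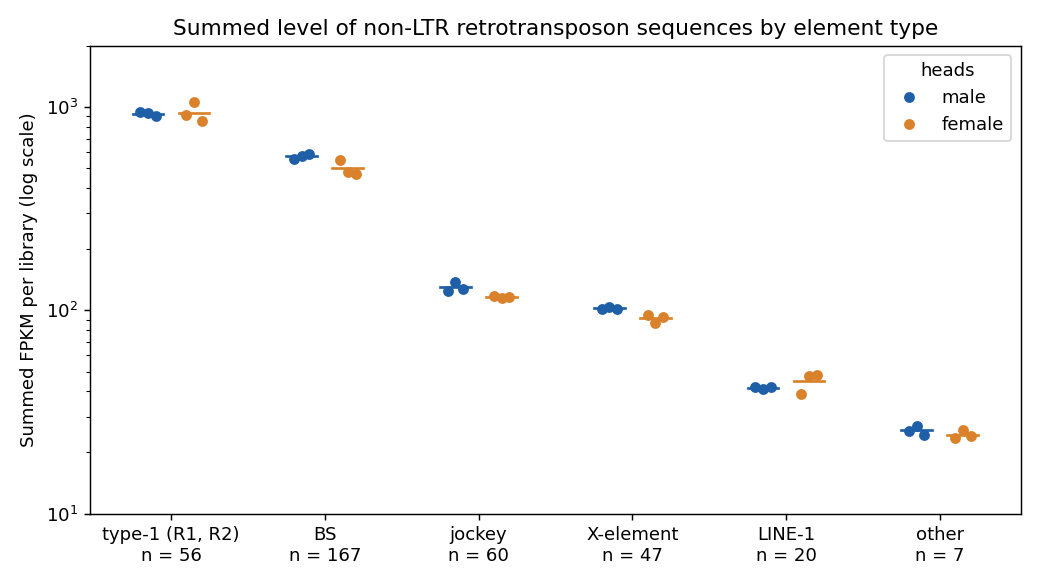
Summed FPKM of the non-LTR retrotransposon sequences of each element type in each library, on a log axis; points are libraries (3 male, 3 female), bars are the mean of each sex and n is the number of sequences. Type-1 sums lie highest, between 851 and 1056 FPKM, and the points of the sexes lie close together in every type.

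The ending of the names went with which libraries listed a sequence. Over the whole table each assembler gene number held at most 1 sequence per ending, and 7652 numbers held one of each. Where both of these carried a name (1370 numbers), the names were the same in 13 (0.949%), so a number shared across the endings did not as a rule go with the same name. Of the 357 sequences 197 ended in 1 and 160 in 2. No listed number joined members across the endings, but 40 NR proteins were matched by members of both, 150 sequences in all. Among those ending in 1, 21, 5 and 3 were listed at 0 in males 1, 2 and 3, and 23, 8 and 24 in females 1, 2 and 3. Among those ending in 2, 8, 26 and 13 were listed at 0 in males 1, 2 and 3, and 8, 15 and 7 in females 1, 2 and 3.

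Thus male 2, male 3 and female 2 had few zeros for the first ending and more for the second, and male 1, female 1 and female 3 had the opposite pattern. All sequences of the table split in the same way: for ending 1, 2.96% to 13.2% were listed at 0 in a library, and for ending 2, 4.25% to 12.6%. The highest share among the non-LTR sequences was in male 2, with 16.2% at 0 of those ending in 2 and 2.54% of those ending in 1. Levels followed, with medians for ending 1 of 1.29, 1.75 and 1.55 FPKM in males 1, 2 and 3 and of 1.01, 1.35 and 1.05 FPKM in females 1, 2 and 3. For ending 2 the medians were 1.66, 1.45 and 1.14 FPKM in males and 1.81, 1.17 and 1.63 FPKM in females. The labels do not say what the endings stand for.

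**Figure D2:**
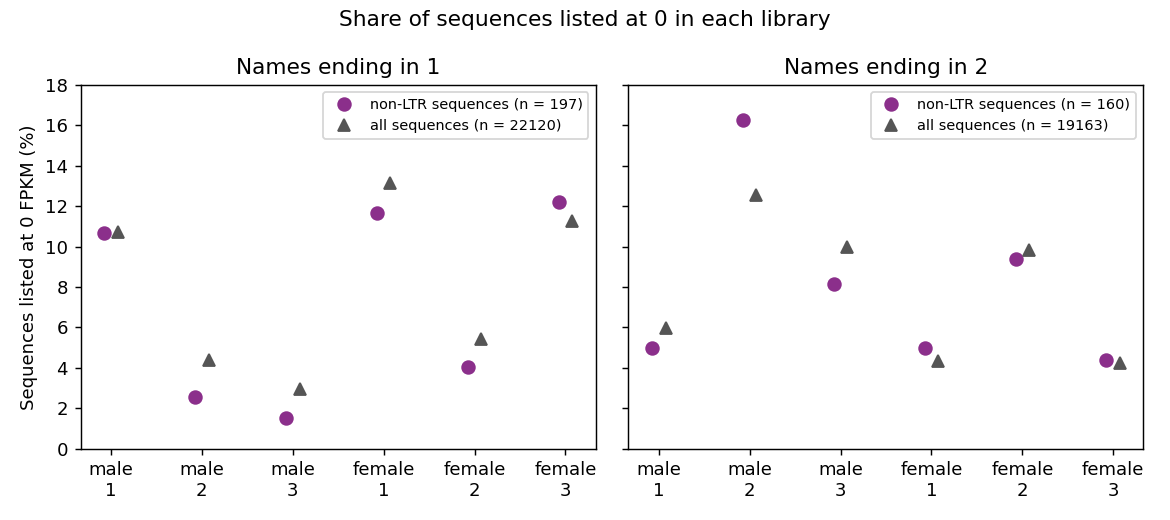
Share of sequences listed at 0 FPKM in each library (percent), for names ending in 1 (left panel) and in 2 (right panel); circles are the non-LTR retrotransposon sequences and triangles the whole table. For ending 1 the low points are male 2, male 3 and female 2, and for ending 2 these 3 libraries have the high points, in both sets.

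A few sequences were listed in one of these sets of libraries and at 0 in every library of the other. DN19697_c4_g1_i1_1, a BS sequence, had 0, 5.02 and 1.53 FPKM in males and 0, 5.37 and 0 FPKM in females. DN7648_c1_g1_i3_2, also BS, had 1.90, 0 and 0 FPKM in males and 1.35, 0 and 4.88 FPKM in females. In all, 4 sequences were above 0 in each of male 2, male 3 and female 2 and at 0 in the rest, and 1 had the reverse pattern; in the whole table these were 200 and 141. These and the next sequences were chosen after their values were seen.

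Within a sex some sequences differed widely between libraries. DN21288_c0_g1_i1_2, a BS sequence, had 0, 0 and 0.679 FPKM in males and 9.20, 0 and 0 FPKM in females, and so was high in female 1 alone. DN14557_c4_g1_i1_2, an X-element sequence, had 6.88, 0 and 0.544 FPKM in males and 1.74, 0 and 1.21 FPKM in females, with male 1 far above the rest. The LINE-1 sequence DN20433_c1_g1_i1_2 had 3.69, 1.92 and 3.65 FPKM in males and 0, 4.30 and 6.06 FPKM in females. Such cases were the extremes: the median within-sex SD of log2(FPKM + 1) was 0.233 over the non-LTR sequences tested and 0.304 over all sequences tested.

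The comparison of the sexes asked which sequences differ between male and female heads. A small number of jockey, BS and X-element sequences, and 1 each named for R1DM and R2DM, was higher in male heads, nearly all at a low level. An R1, a BS and an X-element sequence were higher in female heads. The abundant R1 and BS sequences described above were not among them. The whole table was fitted with limma, and 249 of the 357 sequences were tested, those with at least 1 FPKM in at least 3 of the 6 libraries. The 108 that fell below this had means of at most 1.65 FPKM. Of the 249, 15 passed a limma adjusted p of 0.05, 12 higher in males and 3 higher in females. That is 6.02%, and 7.11% of all 35198 sequences tested passed, 4.4% higher in males and 2.7% higher in females. The share was thus close to that of the table as a whole. The median log2 fold change was 0.10 over the 249 and 0.05 over all sequences tested, with 59.0% and 54.7% of values above 0. These medians moved with the scaling, to 0.06 and -0.01 with median of ratios and to 0.03 and -0.01 with quantile normalization. Every male lay above every female in 55 of the 249 and below in 26 (22.1% and 10.4%, beside 18.2% and 12% of all sequences tested). With median-of-ratios scaling the 12 and 3 were the same counts, while those of the table were 1324 higher in males and 1330 in females, in place of 1549 and 952. With the library split described above as a term in the model, 6 were higher in males and 1 in females, beside 2.02% and 1.2% of all sequences tested. Leaving out any one male or female 2 gave 4 and 1, leaving out female 3 gave 4 and 2, and leaving out female 1 gave 8 and 3.

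**Figure D3:**
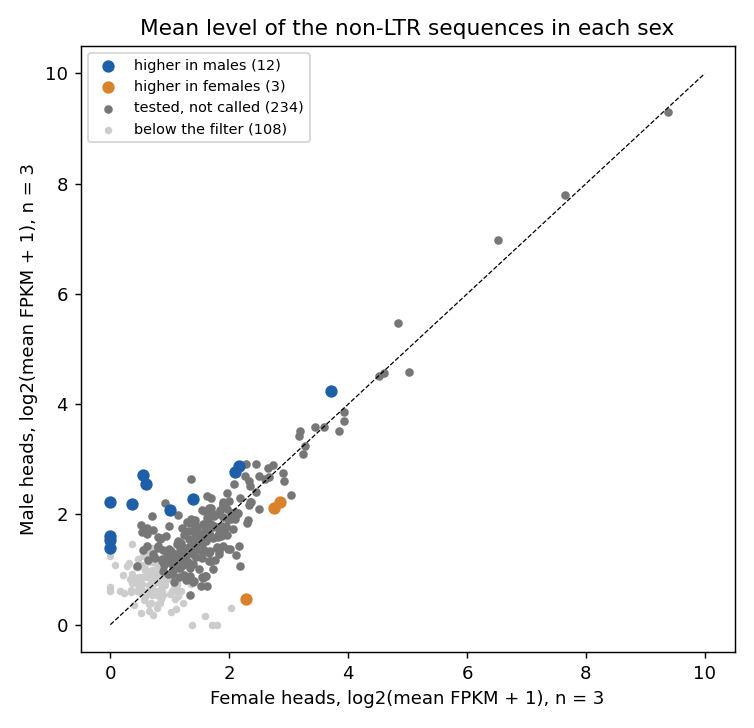
Mean level of each of the 357 non-LTR retrotransposon sequences in male heads (vertical axis) and female heads (horizontal axis), both as log2(mean FPKM + 1) over 3 libraries; the dashed line marks equal levels. Most points lie near the line, 12 sequences higher in males lie above it and 3 higher in females below it, all with means over the 6 libraries of at most 15.1 FPKM.

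All 15 sequences had values that did not overlap between the sexes, and 14 of them averaged under 10 FPKM. The test that picked them used the same values and favours such separation, so it is no further support. By type they were 4 of 33 jockey sequences tested, all higher in males, 4 and 1 of 133 BS sequences higher in males and in females, 2 and 1 of 31 X-element sequences, 1 and 1 of 30 type-1 sequences, and 1 of the 7 in the remaining group. None of the 15 LINE-1 sequences tested passed limma's test. An unadjusted p from limma was below 0.05 in 2, beside 23.3% of all sequences tested. By ending they were 9 and 1 of 139 with ending 1, where 5.59% and 1.96% of all tested sequences of that ending were higher in males and in females. With ending 2 they were 3 and 2 of 110, beside 3.03% and 3.56%. The median log2 fold change was 0.18 for ending 1 and -0.03 for ending 2. It was 0.28 and -0.07 for BS, and 0.19 and 0.00 for jockey. The difference between the endings was not tested.

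The largest differences in jockey sequences stood in 3 sequences from 2 assembler components. DN5340_c0_g3_i2_1 had 4.86, 5.40 and 6.40 FPKM in males and 0.415, 0.263 and 0.696 FPKM in females. DN5340_c0_g1_i1_1, of the same component, had 4.03, 5.15 and 5.46 FPKM in males and 0.470, 0.683 and 0.383 FPKM in females. The next, DN18926_c0_g1_i2_1, had 3.199, 3.22 and 4.26 FPKM in males and 0.227, 0.259 and 0.356 FPKM in females. Every male stood several-fold above every female in each, with log2 fold changes of 2.17 (SE 0.21), 1.96 (SE 0.21) and 1.82 (SE 0.22) and limma adjusted p of 0.0045, 0.0057 and 0.0085. The first and the third matched the same NR protein, so these cannot be counted as independent cases. Whether they stand for the same element was not tested. All 3 entered the test through the males alone, as no female value reached 1 FPKM. The 3 calls held without any one library and with the library split as a term.

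A further 4 sequences with ending 1 were listed in every male and at 0 in every female, so no fold is given. DN17747_c0_g3_i1_1, named for BS, had 5.35, 2.74 and 2.95 FPKM in males (limma adjusted p = 0.011). DN17747_c0_g2_i1_1, also BS and of the same component, had 2.01, 1.94 and 1.75 FPKM (limma adjusted p = 0.015). All 3 males listed each of them at a low level. DN12470_c0_g1_i1_1, named for jockey, had 1.94, 1.19 and 3.01 FPKM (limma adjusted p = 0.034), and DN14996_c0_g1_i1_1, named for a nucleic-acid-binding protein of X-element, 1.63, 1.51 and 1.70 FPKM (limma adjusted p = 0.021). All 4 entered the test through the males alone, which was so for 7 of the 12 sequences higher in males. Among all 41283 sequences, 151 were at 0 in all females and at 1 FPKM or more in all males (0.366%), 141 of them with ending 1 and 10 with ending 2. No non-LTR sequence had the reverse pattern, which 100 sequences of the table had (0.242%). The call of DN17747_c0_g3_i1_1 held without any one library. The calls of the other 3 ended without any one of the males, female 2 or female 3 (limma adjusted p of 0.0541 to 0.101), with DN12470_c0_g1_i1_1 and DN14996_c0_g1_i1_1 also lost without female 1, and all 3 ended with a pseudocount of 0.1. That of DN12470_c0_g1_i1_1 also ended with the library split as a term (limma adjusted p = 0.073) and with the filter on the mean (limma adjusted p = 0.0555).

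The other 5 sequences that were higher in males were present in both sexes. The sequence DN544_c0_g1_i5_1, named for R2DM in NR and for LINE-1 in Swiss-Prot, was the most abundant of all 15, with 17.2, 19.2 and 17.4 FPKM in males and 10.4, 13.5 and 12.6 FPKM in females (limma log2 fold change 0.53, SE 0.10, adjusted p = 0.033). It held a reverse transcriptase domain and the domain of an OTU-like cysteine protease, an enzyme family that removes ubiquitin. Of the 6 sequences named for R2DM it was the only 1 with a log2 fold change above 0, and their median was -0.49. The BS sequence DN4486_c0_g1_i6_2 had 5.70, 7.26 and 6.02 FPKM in males and 3.55, 3.42 and 3.40 FPKM in females (limma log2 fold change 0.71, SE 0.12, adjusted p = 0.025). It was 1 of the 16 that matched the same NR protein, and of the other 15 of these none passed the test. DN5307_c0_g1_i5_2, also BS, had 3.94, 3.998 and 3.57 FPKM in males and 1.93, 1.48 and 1.47 FPKM in females (limma log2 fold change 0.88, SE 0.17, adjusted p = 0.033). The type-1 sequence DN1265_c1_g1_i1_1, named for a protein of R1DM, had 5.003, 6.70 and 5.75 FPKM in males and 3.29, 3.05 and 3.42 FPKM in females (limma log2 fold change 0.67, SE 0.14, adjusted p = 0.038). The X-element sequence DN10351_c0_g5_i1_2 had 3.59, 3.48 and 2.64 FPKM in males and 1.12, 0.831 and 1.07 FPKM in females (limma log2 fold change 1.07, SE 0.21, adjusted p = 0.034). All 5 of these calls ended without any one of the males, female 2 or female 3 (limma adjusted p of 0.0512 to 0.125). DN4486_c0_g1_i6_2, DN1265_c1_g1_i1_1 and DN10351_c0_g5_i1_2 were also lost without female 1, and all 5 with the library split as a term (limma adjusted p of 0.0636 to 0.0963).

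The 3 sequences that were higher in females came from 3 types. The R1 sequence DN15831_c0_g4_i1_2 had 0.425, 0.555 and 0.159 FPKM in males and 4.17, 4.13 and 3.25 FPKM in females (limma log2 fold change -1.82, SE 0.23, adjusted p = 0.0098). It entered the test through the females alone. It was the only one of the 3 with an absolute log2 fold change of at least 1, and the call was also made without any one library. The BS sequence DN10938_c3_g1_i2_2 had 3.43, 3.73 and 3.84 FPKM in males and 5.67, 6.97 and 6.15 FPKM in females (limma log2 fold change -0.64, SE 0.12, adjusted p = 0.030). DN1308_c0_g2_i2_1, named for the reverse transcriptase of X-element in NR and for that of BS in Swiss-Prot, with the reverse transcriptase domain listed, had 3.23, 3.71 and 3.15 FPKM in males and 4.88, 6.41 and 6.01 FPKM in females (limma log2 fold change -0.63, SE 0.14, adjusted p = 0.048). The calls of this pair ended without any one of the males, female 2 or female 3 (limma adjusted p of 0.0858 to 0.138), and with the library split.

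**Figure D4:**
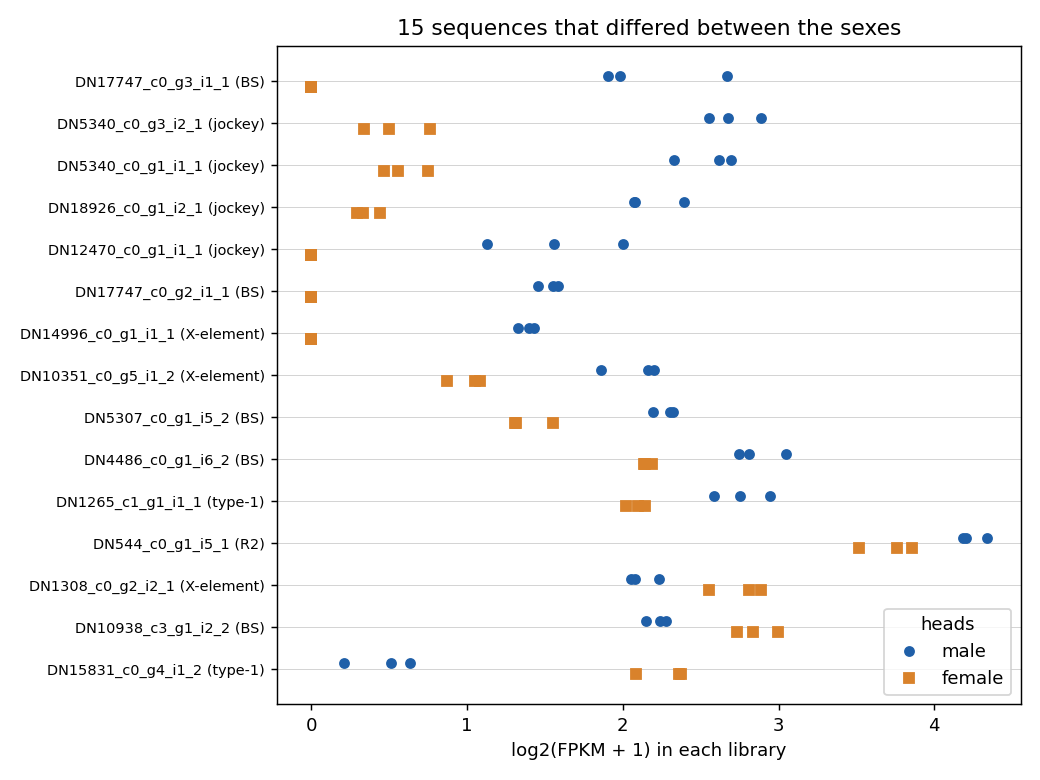
Level of the 15 sequences that differed between the sexes in each library, as log2(FPKM + 1); circles are the 3 male and squares the 3 female libraries, and rows run from the highest to the lowest log2 fold change. The sexes do not overlap in any row, which selection by the test on the same values favours, and 4 sequences are listed at 0 in all 3 females.

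Of 40 tested sequences with a reverse transcriptase domain, 1 was higher in males and 1 in females (5%), and of 193 with no listed domain 13 were called (6.74%), both near the 6.02% of all 249. The most abundant sequences of the remaining types and endings were not called either. DN14967_c0_g2_i3_2, for jockey, had 10.3, 10.3 and 10.6 FPKM in males and 10.5, 12.8 and 16.6 FPKM in females. DN2732_c0_g1_i6_1, with the chloride channel name, had 11.2, 11.6 and 10.3 FPKM in males and 9.51, 10.7 and 13.1 FPKM in females. DN4297_c0_g2_i1_2, for X-element, had 3.46, 3.51 and 4.27 FPKM in males and 3.47, 3.54 and 2.01 FPKM in females. The Tf2 sequence DN9421_c0_g2_i4_2 had 2.56, 2.84 and 2.0001 FPKM in males and 2.85, 3.12 and 2.59 FPKM in females. None passed the test, and the sexes overlapped in each.

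Other mobile elements were set beside these by name. Of 51 tested sequences named for LTR retrotransposons, 2 were higher in males and 2 in females (7.84%). Their median log2 fold change was 0.00. They were DN1247_c0_g1_i6_2 (2.01) and DN633_c0_g2_i8_1 (1.08) in males and DN13522_c0_g1_i1_1 (-1.59) and DN7389_c0_g1_i9_1 (-0.87) in females, and a Copia sequence, DN929_c0_g1_i1_1, was the most abundant (-0.11, not called). Of 548 sequences named for DNA transposons, 17 were higher in males and 10 in females (4.93%), and the median was 0.04. The leading ones in males were DN6867_c0_g3_i1_1 and DN16003_c0_g1_i1_1, both named for the nuclease HARBI1, and DN8589_c1_g1_i1_1, a mariner transposase. Those in females were DN21950_c0_g1_i1_2, of the piggyBac family, and DN11199_c1_g1_i1_1 and DN5010_c0_g3_i3_2, both named for Mos1. The most abundant was DN531_c0_g1_i29_2, named for HARBI1, with 378, 359 and 343 FPKM in males and 261, 225 and 201 FPKM in females (limma adjusted p = 0.018). Median levels were 1.35 FPKM for LTR elements and 2.05 FPKM for DNA transposons. Of 11 sequences named only as reverse transcriptases, none was called by limma. The most abundant of them, DN131_c2_g2_i1_1, had a log2 fold change of 0.48. It was the 1 of the 11 with an unadjusted limma p below 0.05, beside 23.3% of all sequences tested.

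Of the small RNA silencing list, 23 sequences were tested and limma called none. An unadjusted p from limma fell below 0.05 in 5, beside 23.3% of all sequences tested. Of the 23, 10 matched by wording alone, through the name Antagonist of like heterochromatin protein 1. Among the 13 left, the most abundant was vasa, a germline RNA helicase of the PIWI pathway, with 27.1, 30.5 and 27.4 FPKM in males and 33.2, 33.2 and 35.0 FPKM in females (log2 fold change -0.25, limma adjusted p = 0.067). For vasa every male lay below every female. Ago3, a PIWI protein, had 7.88, 8.29 and 7.99 FPKM in males and 7.42, 6.17 and 7.67 FPKM in females. Argonaute-2 (DN1951_c0_g1_i45_2), which acts with small interfering RNAs, had 21.1, 21.6 and 19.3 FPKM in males and 16.6, 18.9 and 18.7 FPKM in females. In another Argonaute-2 sequence, DN18236_c0_g1_i1_1, the sexes overlapped, with 4.12, 5.30 and 4.44 FPKM in males and 4.01, 4.72 and 4.72 FPKM in females. In Ago3 and DN1951_c0_g1_i45_2 every male lay above every female, and neither passed the test (limma adjusted p = 0.38 and 0.20). Tudor names went both ways, with log2 fold changes of -0.27 in DN3149_c0_g1_i17_2 and 0.27 in DN2648_c0_g1_i11_2 (limma adjusted p = 0.12 and 0.16). The Ago3, Argonaute-2 and Tudor sequences were picked with their values known. The median log2 fold change of the 13 was 0.05. Among all sequences tested, every male lay above every female in 18.2% and below in 12%.

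Markers of the head were present, among them Synaptobrevin of neurons (103 to 110 FPKM in males and 105 to 127 FPKM in females) and chaoptin isoform X1 of photoreceptors (21.2 to 22.2 FPKM in males and 14.1 to 15.4 FPKM in females). The lists of tissue names that follow are to be read beside the 7.11% of all sequences tested that were called. Fat body names summed to 35.0 to 41.8 FPKM in males and 95.6 to 115 FPKM in females. Of 9 tested, 3 were higher in females (33.3%). Most of that gap lay in an Apolipophorin-3 sequence, DN912_c0_g1_i2_2, with 2.45 to 3.53 FPKM in males and 30.6 to 46.4 FPKM in females, and in an Arylphorin sequence, DN18247_c0_g1_i1_1, with 0.0436 to 0.105 FPKM in males and 25.6 to 28.9 FPKM in females. Another Arylphorin sequence, DN16751_c0_g1_i9_1, was not called (log2 fold change 0.17), nor was another Apolipophorin-3 sequence, DN3687_c0_g1_i2_2 (0.36). Gonad and germline names summed to 112 to 120 FPKM in males and 121 to 127 FPKM in females. Of 11 tested, 1 was higher in males and 1 in females (18.2%). Eye names summed to 134 to 137 FPKM in males and 107 to 113 FPKM in females, with 2 of 23 tested higher in males and none in females. Neuron names summed to 278 to 296 FPKM in males and 283 to 293 FPKM in females. Of 12 tested, 1 was higher in males and 1 in females (16.7%). The latter, DN5098_c0_g1_i22_2, is named CUGBP Elav-like family member 1 and entered the list through the wording Elav. Muscle names summed to 1394 to 1419 FPKM in males and 1358 to 1705 FPKM in females, with 4 of 18 tested higher in males and 3 in females (38.9%, beside the 7.11% of all sequences tested). Of 10 salivary and silk gland names 9 matched tubulin polyglutamylase by wording, and the remaining one, alpha-amylase, had 3.92 to 4.60 FPKM in males and 1.08 to 1.496 FPKM in females. No list held a sequence at 0 in all 6 libraries. Their part in the differences of the non-LTR sequences was not tested.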

How the data were processed

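Messenger RNA of male and female heads was sequenced from libraries made with a stranded kit, per the labels' protocols. The deposited table holds FPKM values that the authors computed for each assembled sequence, with NR, Swiss-Prot, Pfam and eggNOG annotation. Trimmomatic, HTSeq and R 3.2.0 appear, with no role, in the submitters' processing notes. How the reads were assembled and aligned is not given in the sources used here. FPKM carries no depth, so no counting interval is given. The values summed to 480295 to 492028 FPKM per library.

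Sequences with at least 1 FPKM in at least 3 of 6 libraries were tested on log2(FPKM + 1) with limma 3.58.1 in R 4.3.3, male minus female, two-sided, with a trend in the variance. P-values were adjusted by Benjamini and Hochberg over all sequences tested, with a threshold of 0.05. Simulated data with known differences were used to check the fit. Sequences named in the text were those called, the 5 most abundant, the most abundant per element type and ending, and, per list, up to 3 called in each direction and the most abundant; others are said to be chosen after seeing values. Members, lists and the naming rule were chosen with earlier results of these data known. The domain classes were chosen after seeing the data.

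Alternatives were pseudocounts of 0.1 and 0.5, no filter or a filter on the mean, 2 scalings (median of ratios, quantile), the library split as a term, a replicate block, robust shrinkage, leaving out each library, NR names alone, a minimum absolute log2 fold change of 1, and leaving out the sequences that carry another protein's name or domain. Sequences were not printed because the table holds none.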

Additional observations from a re-analysis of the deposited data

How the results depend on the processing

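Against 12 non-LTR sequences higher in males and 3 in females, the library split as a term gave 6 and 1, and the replicate block gave 2 and 0. Under that block limma gave an unadjusted p below 0.05 to 32 higher in males and 12 higher in females (17.7% of the 249), beside 21.6% of all sequences tested. Leaving out one library gave 4 to 8 higher in males and 1 to 3 higher in females. A minimum absolute log2 fold change of 1 gave 8 and 1. Counts of the whole table fell too, to 712 and 424 with the split, 373 and 258 with the block and 672 and 359 with the minimum fold. Without any one library they were 467 to 1122 higher in males and 349 to 654 higher in females, in place of 1549 and 952. The counts of the non-LTR sequences stayed within 1.5 times under the other alternatives: 9 to 12 and 2 to 4. Leaving out the sequences with another protein's name or domain, chosen after seeing the data, gave 11 and 3. No call among the 15 changed sign. The calls of DN5340_c0_g3_i2_1 and DN5340_c0_g1_i1_1 held under every alternative, and those of DN15831_c0_g4_i1_2, DN17747_c0_g3_i1_1 and DN18926_c0_g1_i2_1 were lost only with the block (adjusted p of 0.052, 0.0558 and 0.0542). The mean filter ended 1 call, that of DN12470_c0_g1_i1_1, and left 2 of the 15 untested. Testing every sequence ended that of DN1308_c0_g2_i2_1 (adjusted p = 0.0547). The cause of these losses was not tested.

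Replicate numbers in the labels are shared by the sexes, and nothing in the labels ties a number to a litter, batch or day. Deviations of same-numbered libraries correlated at 0.106, 0.116 and -0.0508 across sequences, and the first 2 values were the highest of all pairs. Pairs on the same side of the library split correlated above 0 and the rest below 0. These values therefore cannot tell whether same-numbered libraries were paired. Male 3 correlated best with female 2 (0.0855).

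With 3 libraries per sex, low FPKM and no depth, a sequence at 0 cannot be told from one too shallow to be seen. Reads were not traced to single copies, and how many assembled sequences stand for the same element was not tested.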
